A study of Mus musculus with 12 samples.

Results

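Matricellular proteins are secreted into the extracellular matrix, where they signal to cells rather than bear load. The transcripts of 10 genes of this kind, or of adhesive matrix glycoproteins that work beside them, were followed in mouse hearts that differed in 2 regulators, the receptor tyrosine kinase ErbB2 and the orphan nuclear receptor ERRα. The genes were Ccn1, Ccn2, Thbs1, Thbs4, Postn, Spp1, Tnc, Sparc, Fn1 and Prg4, and they were proposed with results of these arrays already in view. Of the probe sets annotated to exactly 1 of these genes, 1 row per gene was chosen by the highest mean over the 12 arrays, so the row was selected on its signal and not on a difference between genotypes. A row was found for 9 of the 10 genes among the 22180 genes tested. Spp1, which encodes osteopontin, was not analysed here. Only Ccn2 had a choice of rows, with 2 probe sets.

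Hearts came from male FVB mice aged 15 weeks, killed at Zeitgeber time 4. There were 4 genotypes with 3 hearts each: wild type (WT), the ErbB2 cDNA knock-in (ErbB2 KI), the mice that lack ERRα (ERRα KO), and the offspring of their cross that carry both changes (KI:KO). The authors describe ErbB2 KI as a hypomorphic model, in which ErbB2 signalling is reduced. Each array measured total RNA of powdered frozen heart, with neither allele restricted to a cell type by the sources used here, so a difference can come from cardiomyocytes, fibroblasts, macrophages or any other cell of the organ. Fewer cells of a type and less RNA per cell cannot be told apart in such samples. Values are log2 signals after robust multi-array averaging (RMA), a method that normalizes probe signals across arrays. A difference of 1 on this scale is a 2-fold change in signal, and probe signal is not a level that can be set against that of another gene.

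The labels were checked on the targeted genes. Esrra, which encodes ERRα, was at a log2 difference of -1.19 ± 0.10 (SE) in ERRα KO against WT (adjusted p = 1e-04) and of -1.32 in KI:KO. Erbb2 was at -0.71 ± 0.13 (SE) in ErbB2 KI against WT, with an adjusted p of 0.199, and at -0.66 in KI:KO (adjusted p = 0.00885). The probes were not placed against the deleted or replaced sequence. On the second principal component, which held 16.4% of the variance, 1 heart of each genotype stood apart from the others of its genotype, with scores from -22.3 to -7.22. These were replicate 2 of WT and of ERRα KO and replicate 3 of ErbB2 KI and of KI:KO. The cardiomyocyte genes Myh6, Tnnt2, Tnni3 and Actc1 were at mean log2 signals of 12.94 to 13.37.

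As background, the CCN proteins Ccn1 and Ccn2 bind integrins and growth factors and are classical targets of the mechanosensitive YAP/TEAD pathway. Thrombospondins bind calcium and cell surface receptors, and Thbs1 is known to release transforming growth factor β (TGF-β) from its latent form. Periostin and tenascin-C are made by activated fibroblasts, are low in the healthy adult heart and are well known from myocardial injury and fibrosis. Sparc helps collagen to be laid down, fibronectin gives the provisional matrix on which cells settle, and the Prg4 product lubricin is best known from joint surfaces.

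The RefSeq sequence before the transcription start is shown for 3 members whose windows held a match to a motif of the upstream pathway or to a TATA box and whose transcripts gave the main patterns below. Of the 10 genes, 6 had such windows in the table used here, and Ccn2, Thbs1, Fn1 and Prg4 had none. Each line gives the 250 bases before the start site in build GRCm38.p6, 5′ to 3′ on the strand of the gene, with motif matches in capitals.
Ccn1: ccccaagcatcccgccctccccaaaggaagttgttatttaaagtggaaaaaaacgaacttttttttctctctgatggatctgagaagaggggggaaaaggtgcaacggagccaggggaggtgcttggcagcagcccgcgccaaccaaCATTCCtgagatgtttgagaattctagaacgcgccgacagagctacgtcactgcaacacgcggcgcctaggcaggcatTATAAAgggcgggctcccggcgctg
Thbs4: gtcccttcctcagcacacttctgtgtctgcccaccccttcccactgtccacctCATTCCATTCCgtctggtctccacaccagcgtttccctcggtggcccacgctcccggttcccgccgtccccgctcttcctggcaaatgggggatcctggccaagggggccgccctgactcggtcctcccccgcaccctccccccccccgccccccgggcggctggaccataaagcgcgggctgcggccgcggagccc
Postn: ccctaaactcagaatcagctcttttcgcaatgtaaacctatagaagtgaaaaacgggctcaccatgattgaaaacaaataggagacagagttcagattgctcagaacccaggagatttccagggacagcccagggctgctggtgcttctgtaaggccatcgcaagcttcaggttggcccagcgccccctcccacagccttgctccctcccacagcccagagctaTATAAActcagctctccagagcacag
The Ccn1 window lies on the minus strand at chr3:145649986-145650235, the Thbs4 window on the minus strand at chr13:92794819-92795068, and the Postn window, the downstream one of the 2 that RefSeq lists, on the plus strand at chr3:54360857-54361106.

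Matches were searched on both strands for the TEAD element GGAATG, the AP-1 element TGANTCA, the ERR element TCAAGGTCA, its core AAGGTCA, the TATA box TATAAA and the CArG box. The Ccn1 window held 1 TEAD match on the reverse strand at positions -103 to -98 and a TATA box at -25 to -20 before the start. The Thbs4 window held 2 TEAD matches on the reverse strand, at -197 to -192 and -192 to -187, which overlap by 1 base. The Postn window held a TATA box at -26 to -21. These are common letters: of 32851 windows of the same length, 12.6% held the TEAD element and 12.4% the TATA box. No window of the 6 genes held the AP-1 element (6.75% of all windows), the ERR element (0.387%), its core (4.08%) or the CArG box (1.47%), which says only that these letters are not in these windows. A match is a description of sequence and not of binding.

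Across the 4 genotypes, most of these genes had their highest mean signal in KI:KO hearts, though only Ccn2 passed the test against ERRα KO. In KI:KO against WT, 6 of the 9 members passed the test in the upward direction: Ccn2, Thbs4, Prg4, Thbs1, Fn1 and Postn, with changes from 1.90-fold for Fn1 to 3.37-fold for Prg4. Without WT replicate 1 or WT replicate 3, 3 of the 6 were left, and under the test named in the methods, with adjusted p, only Ccn2 was. The share of all genes that passed upward was 2.94%, and 2.66% passed downward, where no member did. In ERRα KO against WT, Ccn2 and Thbs4 rose and Ccn1 fell (none under that test), against 1.14% and 1.21% of all genes in those directions. In ErbB2 KI against WT no member passed, as was so for nearly all genes (0.00451% higher and 0.00902% lower), and 1 member, Ccn2, had an unadjusted p under 0.05 (limma, moderated test of 3 hearts against 3, Benjamini-Hochberg adjustment over 22180 genes, here and below). The share of all genes at that unadjusted limit was not counted. Against WT the median log2 difference over the 9 members was 1.48 for KI:KO, 0.52 for ERRα KO and 0.07 for ErbB2 KI, and the medians over all genes lay between -0.01 and 0.00. Because the genes were proposed with these data in view, the counts describe them and are no independent support.

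**Figure D1:**
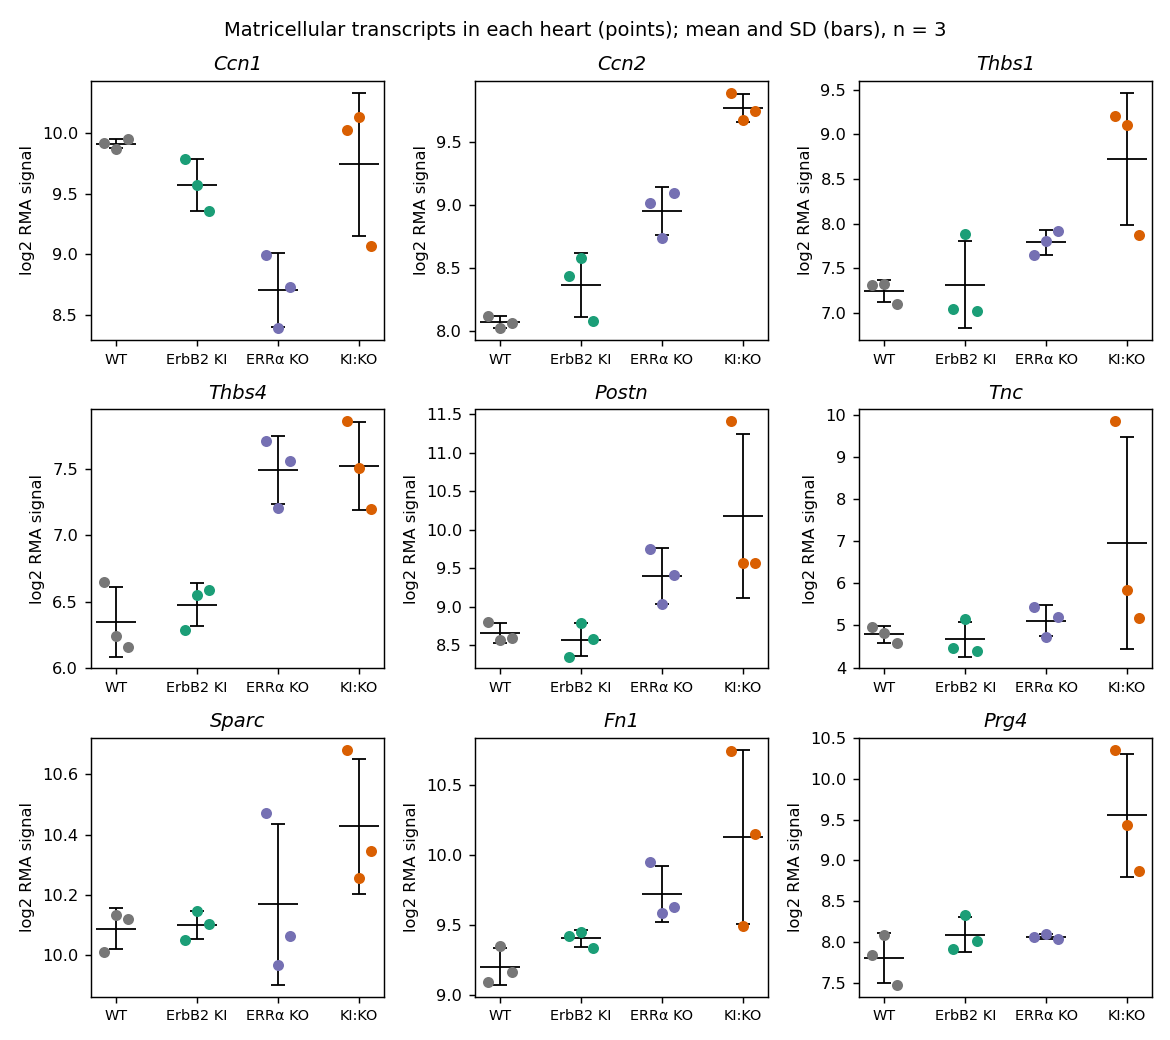
Log2 RMA signal (vertical axes, each with its own range) of the 9 members in each of the 12 hearts, by genotype (horizontal axis). Points are hearts in the order replicate 1 to 3, horizontal bars are means and whiskers are SD (n = 3). Ccn2 steps up from WT to KI:KO, Ccn1 is lowest in ERRα KO, and 1 KI:KO heart is far above the others for Tnc (9.85) and Postn (11.41).

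Ccn2, the CCN protein also called connective tissue growth factor, had the smallest adjusted p of the members. Its log2 signal was 8.11, 8.02 and 8.06 in the WT hearts and 8.43, 8.57 and 8.08 with ErbB2 KI alone. The hearts that lacked ERRα were at 9.01, 8.74 and 9.09 on the normal ErbB2 background and 9.89, 9.67 and 9.74 in KI:KO. No KI:KO heart overlapped with an ERRα KO heart, and no heart that lacked ERRα overlapped with one that had it, while ErbB2 KI and WT overlapped. The rise over WT was 1.84-fold in ERRα KO (log2 difference 0.88 ± 0.13 SE, adjusted p = 0.00489) and 3.25-fold in KI:KO (1.70 ± 0.13, adjusted p = 3.36e-05). ErbB2 KI differed from WT by 0.29 (95% confidence interval 0.00 to 0.59), which did not pass the test (adjusted p = 0.914).

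Ccn2 was also the only member that passed in KI:KO against ERRα KO, the comparison that adds the ErbB2 KI allele to the loss of ERRα. It rose 1.76-fold there (0.82 ± 0.13, adjusted p = 0.0286), where 0.198% of all genes passed upward and 0.131% downward. That call was close to the threshold. It was lost when any 1 of 8 of the 12 arrays was left out (WT replicates 1 and 3, ErbB2 KI replicate 1, all 3 ERRα KO hearts and KI:KO replicates 1 and 2), with differences of 0.71 to 0.89 and adjusted p of up to 0.109. The rise over WT in either genotype that lacks ERRα was kept without any 1 array. Averaged over both Ccn2 probe sets, the difference from WT was 0.46 in ERRα KO, which no longer passed (adjusted p = 0.115), and 0.85 in KI:KO (adjusted p = 0.00316). Its spread between hearts of a genotype was ordinary, with a within-group SD of 0.17 (the median over all genes was 0.17). The second Ccn2 probe set was near the floor, between 4.21 and 4.92 in all 12 hearts, and its 3 KI:KO values of 4.47, 4.48 and 4.57 lay within the WT range.

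Ccn1, the close relative of Ccn2 once named Cyr61, is an early response gene and an integrin ligand, and it followed another course. Its log2 signal was 9.92, 9.87 and 9.95 in the WT hearts and 9.79, 9.57 and 9.36 with ErbB2 KI alone. Without ERRα the values were 9.0, 8.39 and 8.73 on the normal ErbB2 background and 10.03, 10.14 and 9.06 in KI:KO. All 3 ERRα KO hearts lay below all other hearts, while the KI:KO group held the highest values of the series and 1 heart, replicate 3, close to the ERRα KO range. Ccn1 fell in ERRα KO to 0.432 of its WT signal (-1.21 ± 0.25, adjusted p = 0.0237). In KI:KO it was at -0.17 against WT (95% confidence interval -0.71 to 0.37, adjusted p = 0.816).

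Between KI:KO and ERRα KO, Ccn1 differed by 1.04 ± 0.25, which missed the threshold (adjusted p = 0.113) although all 3 KI:KO hearts were above all 3 ERRα KO hearts. Without KI:KO replicate 3, 1 of the 4 hearts set apart on the second component, the difference was 1.38 with an adjusted p of 0.00496, and the difference from WT turned from -0.17 to 0.17. The interaction of the alleles, which asks whether KI:KO departs from the sum of the changes in ErbB2 KI and ERRα KO, was 1.38 ± 0.35 for Ccn1 (adjusted p = 0.363), and 1.72 with an adjusted p of 0.0294 without that heart. The fall in ERRα KO was lost without any 1 of the 3 WT hearts or without ERRα KO replicate 2 or 3, with differences of -1.36 to -1.05 over all arrays left out and adjusted p of 0.073 to 0.0913 where the call was lost.

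**Figure D2:**
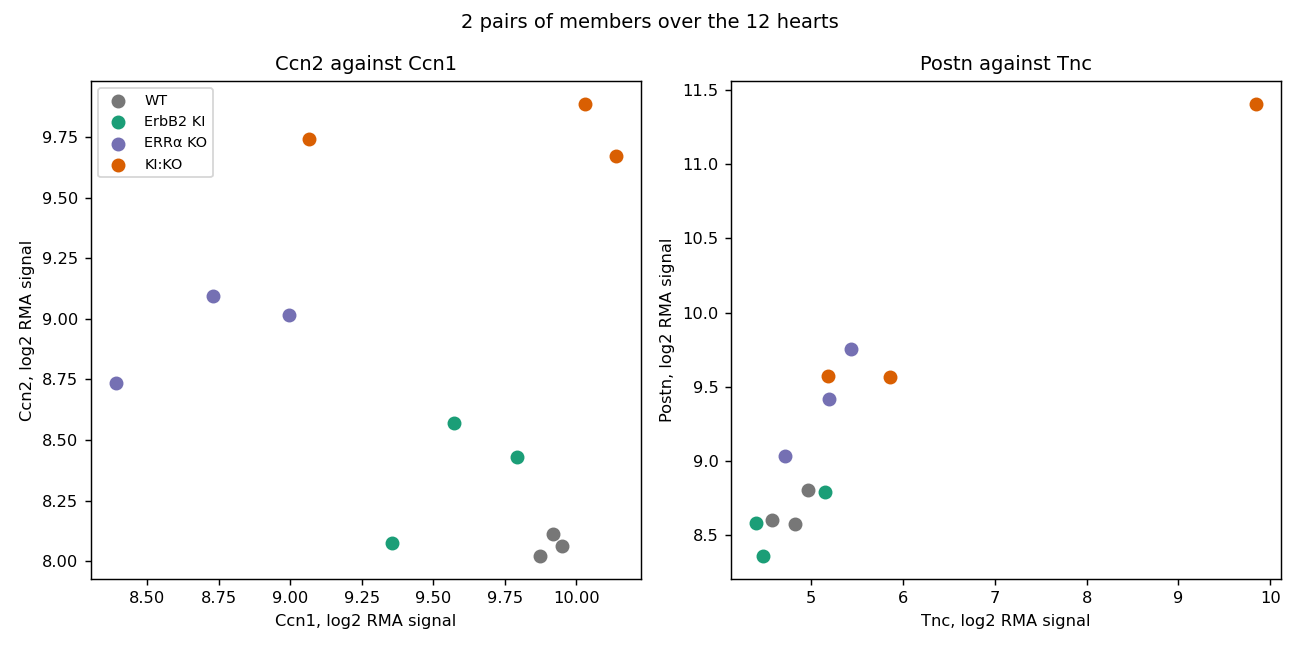
Left, log2 RMA signal of Ccn2 (vertical axis) against Ccn1 (horizontal axis) and right, Postn against Tnc, with 1 point for each of the 12 hearts coloured by genotype. The ERRα KO hearts are high in Ccn2 and low in Ccn1, 2 of the 3 KI:KO hearts are high in both, and on the right KI:KO replicate 1 lies far from the other 11.

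Both thrombospondins measured among the members rose in KI:KO against WT, with different courses. Thbs4, the pentameric thrombospondin of the stressed heart and of tendon, was at 6.65, 6.24 and 6.16 in the WT hearts and 6.29, 6.55 and 6.59 with ErbB2 KI alone. The hearts without ERRα gave 7.71, 7.21 and 7.56 on the normal ErbB2 background and 7.86, 7.51 and 7.20 in KI:KO. The lowest heart without ERRα (7.20) stood above the highest heart with it (6.65), and ERRα KO and KI:KO covered the same range. The rise was 2.21-fold in ERRα KO (1.14 ± 0.19, adjusted p = 0.00837) and 2.26-fold in KI:KO (1.17 ± 0.19, adjusted p = 0.00364). KI:KO and ERRα KO differed by 0.03, with a 95% confidence interval of -0.38 to 0.44. Both rises over WT were kept without any 1 array.

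Thbs1, the trimeric thrombospondin that binds CD36 and CD47 and activates TGF-β, was at 7.31, 7.32 and 7.11 in WT and at 7.05, 7.88 and 7.03 in ErbB2 KI. It was at 7.65, 7.80 and 7.92 in ERRα KO and at 9.20, 9.10 and 7.88 in KI:KO. KI:KO replicate 3 lay among the ERRα KO hearts and the other 2 KI:KO hearts lay more than 1 log2 unit above every heart of the other genotypes. Thbs1 rose 2.79-fold in KI:KO against WT (1.48 ± 0.31, adjusted p = 0.016), and ERRα KO was at 0.54 (adjusted p = 0.529). The KI:KO call was lost without KI:KO replicate 1 (1.24, adjusted p = 0.0704), without KI:KO replicate 2 (1.29, adjusted p = 0.0671) and without WT replicate 1 or 3. Without KI:KO replicate 3, Thbs1 also passed against ERRα KO (1.36, adjusted p = 0.0197), which it did not with all arrays (0.94, adjusted p = 0.275).

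Postn and Tnc, the products of activated fibroblasts, were both carried far upward by 1 heart. Postn was at 8.80, 8.57 and 8.60 in the WT hearts and 8.35, 8.79 and 8.58 with ErbB2 KI alone. In the absence of ERRα it read 9.76, 9.03 and 9.41 on the normal ErbB2 background and 11.41, 9.56 and 9.57 in KI:KO. Every heart without ERRα was above every heart with it. Postn rose 2.88-fold in KI:KO against WT (1.52 ± 0.39, adjusted p = 0.0431), and ERRα KO was at 0.74 (95% confidence interval -0.12 to 1.60, adjusted p = 0.488). KI:KO replicate 1 was 6.74-fold above the WT mean and the other 2 KI:KO hearts were 1.87-fold and 1.88-fold above it.

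Leaving out KI:KO replicate 1 lowered the Postn difference from 1.52 to 0.91 and kept the call (adjusted p = 0.0271). The call was instead lost without any 1 of the 3 WT or 3 ErbB2 KI hearts or of ERRα KO replicates 1 and 3, at adjusted p of 0.0539 to 0.123.

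Tnc, which encodes tenascin-C, was at 4.97, 4.82 and 4.57 in the WT hearts and 4.48, 5.15 and 4.40 with ErbB2 KI alone. The hearts that lacked ERRα were at 5.44, 4.72 and 5.19 on the normal ErbB2 background and 9.85, 5.85 and 5.18 in KI:KO. The KI:KO hearts were above all WT hearts, but they were spread from 1.31-fold to 33.3-fold above the WT mean. The Tnc values of WT and ErbB2 KI hearts were near the floor, close to the array medians of 4.58 to 4.65. These folds are therefore set against a dim baseline. The group difference of 2.17 had a 95% confidence interval of 0.27 to 4.08 and did not pass the test (adjusted p = 0.21). Without KI:KO replicate 1 it was 0.73 (adjusted p = 0.23). The within-group SD of Tnc, 1.29, stood at the 100th percentile of all genes and that of Postn, 0.58, at the 99.5th.

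KI:KO replicate 1 set itself apart from its 2 group mates most of all in Tnc, which ranked 1st of 22180 genes for that difference at 4.33 log2 units. The next genes in rank were Timp1 (2.75), Adam8 (2.35), Hspa1b (2.27), Lox (1.97) and Postn (1.84), and Col8a1, Col3a1 and Col1a1 were also among the first 15. Prg4 ranked 39 (1.21) and Fn1 105 (0.92), whereas Ccn2 ranked 4395 (0.18). These ranks were read from the values and carry no test.

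Sparc and Fn1, whose products bind collagen and cells, gave smaller differences. Fn1 was at 9.09, 9.35 and 9.16 in the WT hearts and 9.42, 9.45 and 9.34 with ErbB2 KI alone. Without ERRα it read 9.95, 9.59 and 9.63 on the normal ErbB2 background and 10.74, 9.49 and 10.15 in KI:KO. All 6 hearts without ERRα were above the 6 with it, by a narrow margin (9.49 against 9.45). Fn1 rose 1.90-fold in KI:KO against WT (0.93 ± 0.24, adjusted p = 0.0411), a call that stood close to the threshold and was lost without any array other than KI:KO replicate 2, at adjusted p of 0.05 to 0.133 and with a difference of 0.62 without KI:KO replicate 1.

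Sparc was at 10.01, 10.13 and 10.12 in the WT hearts and 10.05, 10.14 and 10.10 with ErbB2 KI alone. In the absence of ERRα the values were 10.47, 9.97 and 10.06 on the normal ErbB2 background and 10.68, 10.25 and 10.35 in KI:KO. The KI:KO hearts lay above the WT hearts and overlapped with ERRα KO, and the difference from WT was 0.34 (95% confidence interval 0.04 to 0.65, adjusted p = 0.221). Sparc did not pass the test in any comparison. With a within-group SD of 0.18 its spread was near that of the median gene.

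Prg4, which encodes lubricin, separated KI:KO from the other 3 genotypes. It was at 7.84, 8.09 and 7.47 in the WT hearts and 7.92, 8.33 and 8.02 with ErbB2 KI alone. Without ERRα it was at 8.06, 8.10 and 8.04 on the normal ErbB2 background and 10.36, 9.44 and 8.87 in KI:KO. No KI:KO heart overlapped with a heart of another genotype, and the other genotypes overlapped with each other. Prg4 rose 3.37-fold over WT (1.75 ± 0.29, adjusted p = 0.00426) and 2.76-fold over ErbB2 KI (1.47 ± 0.29, adjusted p = 0.016), and it was 2.81-fold above ERRα KO (1.49 ± 0.29), which missed the threshold (adjusted p = 0.0613).

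The Prg4 rise over WT was kept without any 1 array, at 1.35 to 2.10. Against ERRα KO it passed without KI:KO replicate 3 (1.83, adjusted p = 0.00692). The interaction for Prg4 was 1.2 ± 0.41 (adjusted p = 0.576), and for Ccn2 it was 0.52 ± 0.19 (adjusted p = 0.602). No member passed for the interaction, where 0.00451% of all genes passed in each direction. Of the members, 3 had an unadjusted p under 0.05 (Ccn1, Prg4 and Ccn2), a limit at which the share of all genes was not counted.

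**Figure D3:**
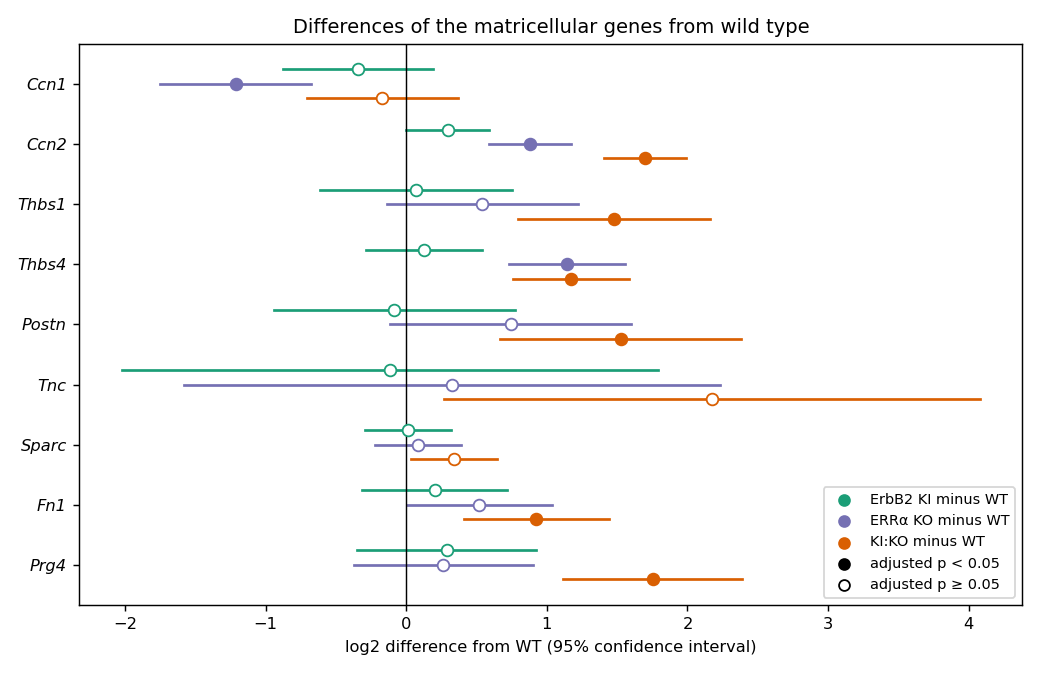
Log2 difference from WT (horizontal axis) of each member in the 3 mutant genotypes, with 95% confidence intervals from the model over all 12 arrays. Filled points passed the test at an adjusted p under 0.05 and open points did not. The intervals of Tnc are the widest, and Ccn1 is the only member whose ERRα KO point (-1.21) passed below 0.

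KI:KO was also set against ErbB2 KI, which isolates the loss of ERRα on the KI background. There 5 of the 9 members rose (Ccn2 2.65-fold, Thbs1 2.65-fold, Thbs4 2.06-fold, Postn 3.05-fold and Prg4 2.76-fold), against 2.22% of all genes upward and 1.69% downward. Fn1, which had passed against WT, was at 0.72 (adjusted p = 0.136). Without ErbB2 KI replicate 1 only Ccn2 was left, and without ErbB2 KI replicate 3 only 2 members. Thbs4 was lost without the first of these hearts alone (0.95, adjusted p = 0.0509) and Prg4 without either (adjusted p of 0.0558 to 0.0716). Thbs1 was lost without either of them or KI:KO replicate 1 or 2 (adjusted p of 0.0996 to 0.111), and Postn without any array other than the 3 KI:KO hearts (adjusted p of 0.0502 to 0.15).

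Averaged over both ErbB2 genotypes, the loss of ERRα went with a rise of 6 members, with 3.50% of all genes passing upward and 3.27% downward. Ccn2 rose by 1.14 ± 0.09, Thbs4 by 1.09 ± 0.13, Postn by 1.18 ± 0.28, Thbs1 by 0.98 ± 0.22, Prg4 by 0.87 ± 0.21 and Fn1 by 0.62 ± 0.17, with adjusted p from 2.32e-05 for Ccn2 to 0.0458 for Fn1. Ccn1 was at -0.52 ± 0.17 (adjusted p = 0.112). The 2 differences averaged were, for Prg4, 0.26 in ERRα KO against WT and 1.47 in KI:KO against ErbB2 KI, and for Thbs4 1.14 and 1.04. Ccn2 and Thbs4 passed without any 1 array. The count fell from 6 to 2 without ErbB2 KI replicate 1 or 3 or ERRα KO replicate 3, and to 3 without WT replicate 3 or ERRα KO replicate 1.

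Separation of hearts alone was a weaker criterion. In KI:KO, 8 of the 9 members had all 3 hearts above all 3 WT hearts, Ccn1 being the exception, where 10.7% of all genes did so. In ERRα KO, 5 of the 9 did so (Ccn2, Thbs1, Thbs4, Postn and Fn1), where 9.24% of all genes did. Shares of all genes were not counted for the separation of all hearts without ERRα from all with it. They were also not counted for that of KI:KO from every other genotype.

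Over the 12 hearts the members did not follow a single profile. Postn and Tnc were the most alike pair (Pearson r = 0.928 over 12 arrays, and 0.966 for the deviations from the genotype means, and 0.834 and 0.739 without KI:KO replicate 1), followed by Thbs1 and Prg4 (0.909 and 0.784). Ccn1 stood off, with r between -0.34 and 0.30 against the other 8 members. Within genotypes its r lay between 0.03 and 0.65. Arrays of 1 genotype share their group mean and the hearts set apart on the second component, so these values are descriptions.

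Among genes whose mean signal was at or above the 40th percentile, the 3 most like each member over the 12 hearts were looked up. Ccn2 was nearest to Cdh22, a cadherin, Serping1, the C1 inhibitor, and Efhd2 (r = 0.985, 0.968 and 0.966). Thbs4 was nearest to Hip1, Prkar1a and Pcolce, the enhancer of procollagen processing (0.975, 0.961 and 0.961). Thbs1 was nearest to Cspg4, the pericyte proteoglycan NG2, to Adamts1, a protease, and to Gdap2 (0.958, 0.952 and 0.949).

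Postn was nearest to Msn, Cilp and Loxl1, a lysyl oxidase (0.98, 0.976 and 0.971), and Tnc to Adam8, Tgfb2 and Col5a2 (0.981, 0.976 and 0.968), all 6 with r of 0.95 to 0.978 also within genotypes. Fn1 was nearest to Anxa2, Sirpa and Nckap1l (0.954, 0.952 and 0.939), and Sparc to Ctsz, Grn and Nckap1l (0.962, 0.961 and 0.951). Ctsz, Grn, Sirpa and Nckap1l are known from macrophages and other leukocytes. Prg4 was nearest to Tgm2, a transglutaminase, Capn2 and Pla2g4a (0.968, 0.967 and 0.967), and Ccn1 to Nudt18, Clec16a and Ccdc9b (0.941, 0.93 and 0.922). The within-genotype r ranged down to 0.395, for Efhd2 with Ccn2.

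Some other genes of the same families passed the test. Of all genes, 2.94% passed upward in KI:KO against WT, and 1.14% upward and 1.21% downward in ERRα KO. The members were proposed with these data in view, so a contrast with their relatives is no independent result. In KI:KO against WT none of the other 4 CCN genes passed, with Ccn5 at 0.64 (adjusted p = 0.068), nor did any of the other 3 thrombospondins, with Thbs3 at 0.48 (adjusted p = 0.0542), Thbs2 at -0.05 and Comp at -0.24. None of the other 3 tenascins passed, and Tgfbi, the relative of periostin, was at 0.33 (adjusted p = 0.26). Of 7 other SPARC family genes 1 rose, the follistatin-like gene Fstl1, at 0.94 (adjusted p = 0.0202). Of 8 other adhesive glycoproteins 1 rose, Ecm1, at 1.06 (adjusted p = 0.00348), and of 12 small leucine-rich proteoglycans 1, biglycan (Bgn), at 0.67 (adjusted p = 0.0127). None of the 4 relatives of osteopontin passed. In ERRα KO none of these relatives passed except Ecm1, at 0.76 (adjusted p = 0.0388), and vitronectin (Vtn), which fell, at -0.68 (adjusted p = 0.0363).

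**Figure D4:**
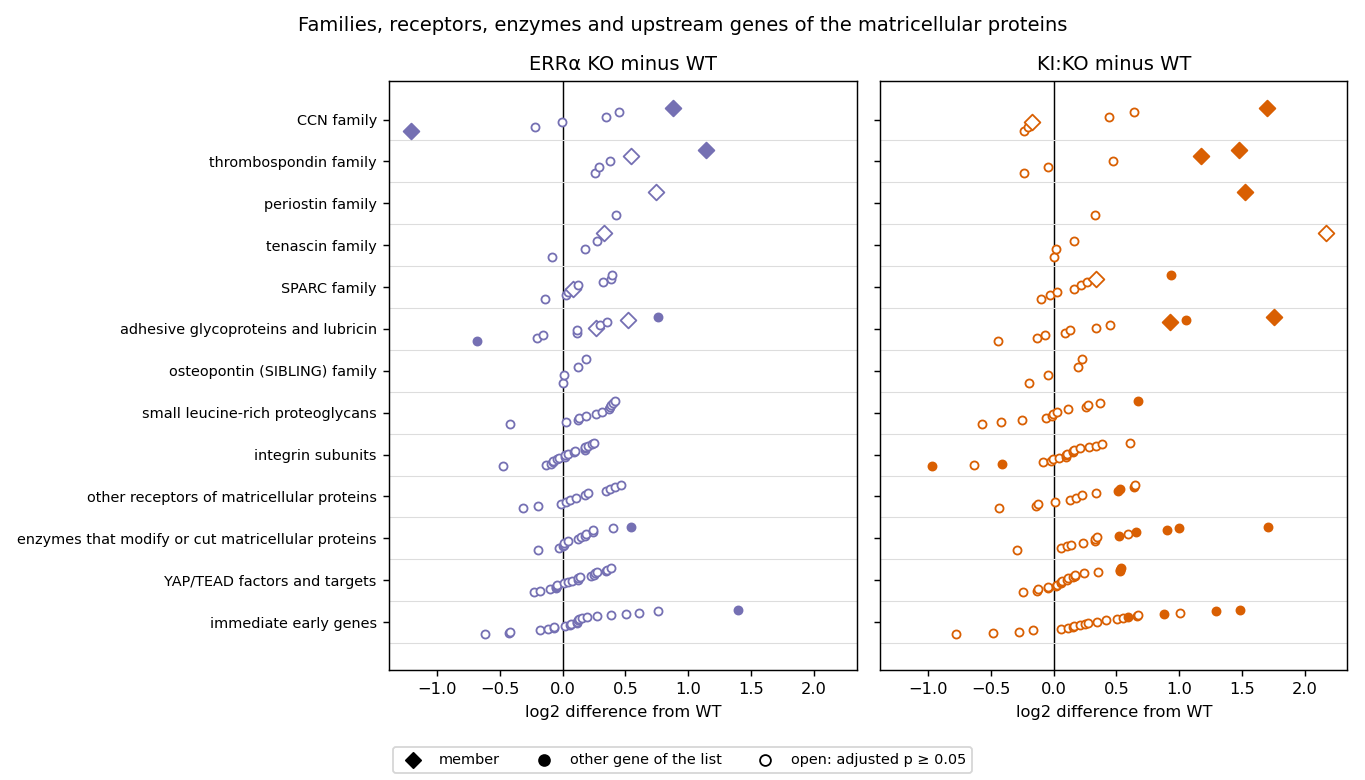
Log2 difference from WT (horizontal axis) in ERRα KO (left) and KI:KO (right) for every measured gene of the families, receptors, enzymes and upstream genes listed on the vertical axis. Diamonds are members, circles are the other genes, filled symbols passed the test at an adjusted p under 0.05. In the right panel the filled diamonds of Ccn2 (1.70), Postn (1.52), Thbs1 (1.48) and Thbs4 (1.17) lie to the right of all other genes of their families. Fn1 (0.93) lies to the left of Ecm1, and Sparc (0.34) to the left of Fstl1. Because the members were proposed with these data in view, their places are descriptions only.

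The genes that receive, process and drive these proteins were taken from lists. Of 18 integrin subunits none rose in KI:KO and 2 fell, Itgb6, the epithelial partner of the αv chain, at -0.97 (adjusted p = 0.00259) and the laminin receptor chain Itga6 at -0.41 (adjusted p = 0.0353). Of 12 other receptors 3 rose, Stab1, a scavenger receptor for Sparc, at 0.64, Lrp1, an endocytic receptor of thrombospondins, at 0.51, and the syndecan Sdc4 at 0.53. Of 14 genes for enzymes that cut or modify matricellular proteins, with the urokinase receptor Plaur counted among them, 5 rose in KI:KO, of which Tgm2 was at 1.0, Adamts1 at 0.91, Mmp2 at 0.52 and Plaur at 0.66, and Lox was the fifth, at 1.71. Mmp2 alone rose in ERRα KO (0.55), and Tgm2 also passed between KI:KO and ERRα KO (0.88, adjusted p = 0.0286).

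Upstream, 3 of 20 YAP/TEAD factors and targets rose in KI:KO, Tead2 at 0.54, Axl at 0.53 and Nt5e at 0.53, and none in ERRα KO. Of 22 immediate early genes 5 rose in KI:KO: Ier3 at 1.29, Nr4a3 at 1.49, Fosl2 at 0.67, Myc at 0.88 and Zfp36 at 0.60. In ERRα KO, where Ccn1 fell, 1 of the 22 rose, Nr4a3 at 1.4 (adjusted p = 0.0223), and none fell. Of all genes, 2.94% passed upward in KI:KO and 1.14% in ERRα KO.

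Marker lists of macrophages and fibroblasts, cells that make matricellular proteins, moved with several members. Of 12 macrophage markers 9 rose in KI:KO and none in ERRα KO, and the mean log2 signal of the list was 7.06 to 7.18 in WT, 7.01 to 7.22 in ErbB2 KI, 7.29 to 7.85 in ERRα KO and 7.84 to 8.13 in KI:KO. Of 11 fibroblast markers 2 rose in KI:KO, Pcolce and Mfap5, and Pcolce in ERRα KO (0.82, adjusted p = 0.00748), with the list at 9.08 to 9.14 in WT, 9.15 to 9.34 in ErbB2 KI, 9.35 to 9.72 in ERRα KO and 9.43 to 10.08 in KI:KO, and its highest heart was KI:KO replicate 1, the heart highest in Tnc and Postn. Acta2, the smooth muscle actin of myofibroblasts, was the 1 of 6 smooth muscle markers to rise. It rose by 1.49 in ERRα KO and by 1.65 in KI:KO, where the medians of that list were 0.27 and 0.04. The smooth muscle list was at 7.36 to 7.91 in WT and 7.23 to 7.92 in ErbB2 KI. It was highest in ERRα KO, at 7.97 to 8.24, and in KI:KO, at 7.595 to 8.02, it overlapped with WT. Like every measured member except Ccn1 and Prg4, the macrophage and fibroblast lists had their highest genotype mean in KI:KO and the next in ERRα KO. The platelet and megakaryocyte list and the endocardial list had the same order, with overlap between KI:KO and ERRα KO. The platelet list was at 6.16 to 7.085 in WT, 6.11 to 7.31 in ERRα KO and 6.79 to 7.29 in KI:KO. The endocardial list was at 7.74 to 7.80, 7.84 to 8.20 and 7.93 to 8.21 in the same genotypes. The part of these lists in the results for the members was not tested.

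For Prg4 and Thbs4, which tendon and cartilage also make, markers of those tissues were dim in part. Tnmd, Acan and Matn4 had mean log2 signals of 3.77, 4.08 and 4.17, under the 40th percentile of genes, whereas Scx, Sox9, Comp, Fmod, Chad and Cilp, at 6.02 to 7.06, lay between the 61.1st and the 75.6th percentile. With Prg4 among its 10 genes, the list was at 5.69 to 5.87 in WT, 5.82 to 6.20 in ErbB2 KI, 6.0 to 6.16 in ERRα KO and 5.93 to 6.24 in KI:KO, and its part in the results for Prg4 and Thbs4 was not tested. Of the 9 valve, tendon or cartilage markers besides Prg4, only Cilp rose in KI:KO (1.78, adjusted p = 0.0231), and only Sox9 in ERRα KO (0.74, adjusted p = 0.026). Of 9 cardiomyocyte markers 3 fell in KI:KO, Myl2, Myl3 and Mybpc3, by between 0.47 and 0.50 log2 units, and the list was at 11.93 to 12.02 there against 12.18 to 12.21 in WT.

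**Figure D5:**
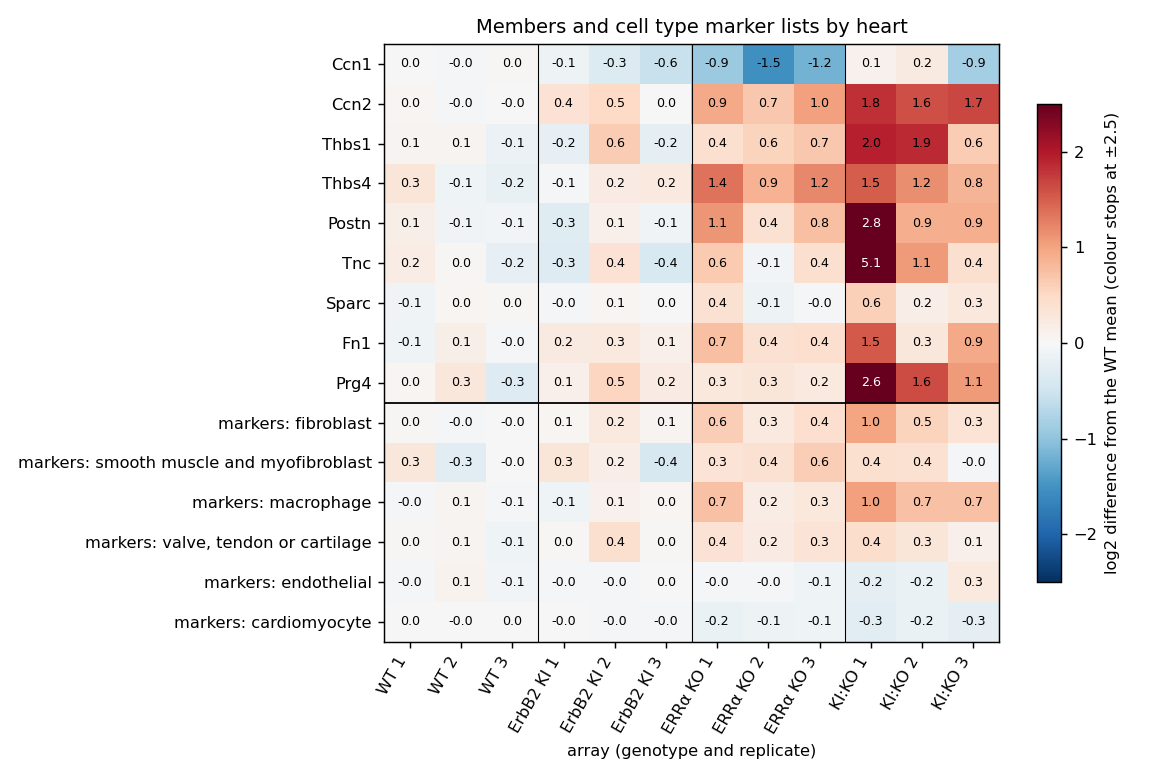
Log2 difference of each heart (columns, by genotype and replicate) from the WT mean for the 9 members (rows above the line) and for the mean of 6 lists of cell type markers (rows below it), with the value printed in each cell. Colour stops at ±2.5, which the Tnc and Postn cells of KI:KO replicate 1 and the Prg4 cell of that heart exceed. The fibroblast and macrophage lists are highest in KI:KO replicate 1, and the ERRα KO hearts are the lowest for Ccn1.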

How the data were processed

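Total RNA of 12 hearts was hybridised to Affymetrix Mouse Gene 2.0 ST arrays. The authors normalized the arrays with RMA in Expression Console 1.4.1 and deposited log2 signals, which were used as given, 1 column for each heart. The number of arrays limits the precision. Of 41345 probe sets, 23521 named 1 gene, 1820 named several and 16004 were unnamed here. The row with the highest mean was kept for each gene, which left 22180 genes. Genotypes were compared with limma 3.58.1 in R 4.3.3 over all arrays (4 group means, eBayes, 8 residual degrees of freedom, two-sided), with Benjamini-Hochberg adjustment over all genes and a threshold of 0.05. The methods instead used a one-way ANOVA with an unadjusted p and a 1.2-fold limit. The test with adjusted p, the limits on the limma fit and, added after seeing the data, both together were run as alternatives. The fit was tested on simulated data. Deviations of samples that share a replicate number correlated between -0.192 and 0.204, which cannot exclude a batch shared by some of them. Members, gene lists and tests were chosen with earlier results of these data known. All members were named, with called genes of each list (at most 4 by p) and the 3 nearest genes to each member. Lox, Zfp36, uncalled relatives, marker genes and the genes high in KI:KO replicate 1 were named after their values were seen. Promoter sequences came from RefSeq (GRCm38.p6). The labels call the hearts biological replicates. Figures were drawn with matplotlib.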

Additional observations from a re-analysis of the deposited data

Results flagged for a closer look

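Ccn1 had opposite signs for the ErbB2 KI allele on the 2 backgrounds: all 3 ErbB2 KI hearts lay below the WT mean (mean difference -0.34), and all 3 KI:KO hearts lay above the ERRα KO mean (mean difference 1.04). The interaction test of this difference gave 1.38 ± 0.35 (SE, limma, adjusted p = 0.363), so it did not pass.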

How the results depend on the processing

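The 9 members gave 63 differences over 7 comparisons, 21 of them called. Over 1494 values under alternatives, 1334 kept their direction and their side of the threshold, 125 lost a call, 17 gained one and 18 changed sign, none of these called. Ccn2 in KI:KO against WT was kept under all 24 alternatives, and Thbs4 and Prg4 there were lost only under the methods' ANOVA with adjusted p. In the same comparison the call was lost under 16 of 24 alternatives for Fn1, 12 for Postn and 6 for Thbs1, and Ccn2 against ERRα KO lost it under 13.

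The methods' ANOVA, as run here, took only the genotypes compared and shared the spread neither between genes nor with the other genotypes. For the averaged loss and the interaction it was fitted over all genotypes. With it and Benjamini-Hochberg adjustment, which the methods did not use, the members called were 0 in ERRα KO and 1 in KI:KO against WT, 0 in KI:KO against either single mutant and 2 for ERRα loss averaged. With that ANOVA at the methods' own limits (unadjusted p under 0.05 and 1.2-fold), run after seeing the data, they were 6 in ERRα KO and 4 in KI:KO against WT, 2 in KI:KO against ERRα KO, 3 against ErbB2 KI and 3 for the interaction. With limma at these limits they were 1 in ErbB2 KI against WT, 4 in KI:KO against ERRα KO, 8 against ErbB2 KI and 3 for the interaction. Shares of all genes were not counted at the unadjusted limits, by either test. The counts at those limits therefore have no background to be read against. Fitting only the groups compared gave 3 in KI:KO against WT, 0 against ERRα KO and 2 against ErbB2 KI. It was not run for the averaged loss and the interaction, which use all groups and would repeat the main fit. Testing all probe sets gave 0 against ERRα KO, 3 against ErbB2 KI and 2 for the averaged loss. For KI:KO against ERRα KO, where 1 was called, median centring, the filter on dim genes and, chosen after seeing the data, a block for the 4 hearts low on component 2 each gave 2, array weights and the intensity trend gave 3, leaving out those 4 hearts gave 3, and averaging the probe sets of each gene gave 0. Leaving out those 4 hearts gave 1 for the interaction, Ccn1. The replicate block gave 0 for KI:KO against ERRα KO, and by it no other count moved by over 1.5 times. The deviations of same-numbered hearts correlated between -0.192 and 0.204, with 3 of 18 pairs over 0.1. Of the hearts low on component 2, those of WT and ERRα KO were both replicate 2. Those of ErbB2 KI and KI:KO were both replicate 3. A batch shared by some same-numbered hearts was not tested. Without 1 array, the counts ranged from 2 to 3 in ERRα KO against WT, 3 to 5 in KI:KO against WT, 0 to 4 against ERRα KO, 1 to 5 against ErbB2 KI, 2 to 6 for the averaged loss, 0 to 1 for the interaction and stayed at 0 in ErbB2 KI against WT.

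Signs changed only for small differences. Without 1 array, ErbB2 KI against WT ranged from -0.21 to 0.22 for Thbs1, -0.19 to 0.025 for Postn, -0.35 to 0.023 for Tnc and -0.027 to 0.037 for Sparc, ERRα KO against WT from -0.071 to 0.18 for Sparc, KI:KO from -0.37 to 0.17 against WT and -0.025 to 0.51 against ErbB2 KI for Ccn1 and from -0.14 to 0.19 against ERRα KO for Thbs4, and the interaction from -0.27 to 0.062 for Thbs4 and -0.10 to 0.52 for Fn1. Leaving out the 4 hearts turned Tnc in ErbB2 KI to 0.040, Ccn1 in KI:KO against WT to 0.15 and the interaction of Thbs4 to 0.028, and median centring turned Sparc in ErbB2 KI to -0.013. The cause was not tested.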
